A study of Arabidopsis thaliana with 10 samples.

Results

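The arrays described here compare Arabidopsis thaliana leaves on day 7 with leaves on day 2 of the study, at the late and the early end of a warm, dim growth regime. They are 4 of the 10 arrays of the series, chosen by the day in their labels, with 1 array of each line on each of the 2 days. The transgenic line, 35S:PAP1, carries PAP1 behind a constitutive viral promoter, and the control line carries an empty vector. Both are in the Columbia background. The study moved both lines from 22 °C at 440 µmol m-2 s-1 into a regime of 30 °C by day at 150 µmol m-2 s-1 for 6 days, and then into 15 °C at 440 µmol m-2 s-1. An array's label states its day and not its regime. From the series text, days 2 and 7 were read as the start and the end of the warm dim regime, day 1 as the regime before it, and the 2 later days as the cool regime after it. Day 7 leaves therefore shared temperature and light with day 2 leaves, and differed from them in time in the regime and in plant age, which cannot be told apart. Each array came from pooled leaf tissue of 1 line on 1 day, and the control line was read as the one labelled Hex. PAP1 itself has no probe set that names it alone, so the transgene's transcript is not analysed here.

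PAP1 is a MYB transcription factor that switches on the genes of anthocyanin synthesis, and its constitutive expression gives red leaves. Leaves moved into dim light fix less carbon, and plants short of sugar are known to raise genes for autophagy and for the breakdown of branched-chain amino acids. Dim light and warmth are also known to raise genes of cell wall loosening, which act in shade and warmth growth. Plastids and mitochondria carry small genomes of their own, which encode subunits of the photosynthetic and respiratory complexes, and the rest of those complexes is encoded in the nucleus.

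Values are log2 probe set signals with 1 decimal, so a difference of 1 is a doubling. The level of 3.9, the highest reading of the seed coat gene BAN and the root gene EXPA7 on any array, was taken as the dim limit, and a change whose lower side reached it is given as "at least". RCA, the rubisco activase of green leaves, read 13.6 to 13.8 on the 4 arrays. EXPA7 read 3.5 in 35S:PAP1 plants and 3.8 in empty vector plants on day 7, against 3.8 in 35S:PAP1 plants and 3.7 in empty vector plants on day 2. PYK10, a root β-glucosidase, read 4.9 in 35S:PAP1 plants and 5.1 in empty vector plants on day 7, against 4.6 in 35S:PAP1 plants and 4.5 in empty vector plants on day 2.

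Control probe sets separated 3 of the 4 arrays from the rest. Bacterial poly-A transcripts that were spiked in ahead of labelling gave medians of 3.85 (35S:PAP1) and 3.8 (empty vector) on day 7, and of 6.9 to 7.5 on each of the 8 arrays from another day. This difference coincides with day 7 and cannot be told apart from it. Medians of the later hybridisation spikes ranged from 8.7 to 9.15 over the series. The 35S:PAP1 array of day 2 gave 9.7 for 25S ribosomal RNA, where the other 9 arrays gave 4.7 to 6.7. Its actin signal was 2.5 log2 units weaker at the 5′ end than at the 3′ end, where the other 9 arrays showed gaps of 1.2 to 1.5, and a wide gap is a known sign of broken RNA. Every 35S:PAP1 change below is taken against that array, and the part of RNA quality in it was not tested.

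The first question was which transcripts differed between the end and the start of the regime in both lines. With the lines as replicates, limma called 17 of 22746 probe sets (0.0747%), 10 of them higher on day 7 (0.0440%) and 7 lower (0.0308%), with 3284 at an unadjusted p under 0.05. Of the 10 that rose, 6 name 1 gene, 1 names several genes and 3 have no entry in the probe table. Of the 7 that fell, 2 name 1 gene, 1 names several and 4 have no entry. The calls rest on the full set of arrays: with any array other than the empty vector day 7 array left out, 0 probe sets passed in either direction, and without that array 67 passed as higher and 71 as lower. On pooled leaves, fewer cells of a type and less RNA per cell cannot be told apart.

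Of the 6 probe sets that rose and name 1 gene, 5 name a mitochondrion-encoded gene, and 2 of these 5 are nad1 probe sets. With 1 probe set a gene, 3 of 16 mitochondrion-encoded genes passed as higher, where 0.0440% of all probe sets did. These 16 are among 13355 named genes. The nad4L gene, which encodes a membrane subunit of respiratory complex I, read 6.7 on day 7 against 4.7 on day 2 in 35S:PAP1 plants, and 6.9 on day 7 against 5.0 on day 2 in empty vector plants. All of its day 7 values lay above all of its day 2 values. The change was 1.95 ± 0.15 log2 units (SE from the fit to all 10 arrays, n = 2 arrays a day, 1 of each line, 3.86-fold, limma adjusted p = 0.0120). The matR gene, which encodes a maturase for mitochondrial intron splicing, read 5.9 on day 7 against 3.8 on day 2 in 35S:PAP1, and 5.8 on day 7 against 4.3 on day 2 in empty vector plants. It rose by at least 1.8 ± 0.2 log2 units (limma adjusted p = 0.0469). The ccb452 reading frame, a part of the machinery that attaches haem to cytochrome c, read 7.0 on day 7 against 5.7 on day 2 in 35S:PAP1 plants and 7.1 on day 7 against 5.6 on day 2 in empty vector plants. It rose by 1.40 ± 0.16 log2 units (limma adjusted p = 0.0472). On days 1, 2, 7, 8 and 12, nad4L read 4.8, 4.7, 6.7, 5.8 and 4.4 in 35S:PAP1, so day 7 was its highest day.

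The nad1 gene, which encodes another membrane subunit of complex I, is measured by 7 probe sets that disagree. The probe set with the highest mean read 6.4 on day 7 against 4.9 on day 2 in 35S:PAP1, and 6.9 on day 7 against 5.3 on day 2 in empty vector plants. Its change of 1.55 ± 0.20 log2 units missed the threshold (limma adjusted p = 0.0590). Another 2 of its probe sets passed, at 1.75 ± 0.17 (limma adjusted p = 0.0396) and 1.70 ± 0.20 log2 units (limma adjusted p = 0.0488). Of the remaining probe sets, 1 differed by at least 1.00 log2 units without passing, its day 2 values being under the dim limit. The others differed by -0.20, -0.15 and -0.10, the last at or near the dim limit.

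Taken over the genome of the organelle, 16 mitochondrion-encoded genes have a probe set of their own, and 3 of them passed as higher and 0 as lower. Their median change was 0.45 log2 units in 35S:PAP1 plants and 0.75 in empty vector plants, where the median of all probe sets was 0 in each line. Both day 7 arrays had the low poly-A spike readings, and the part of that difference in these changes was not tested. In 6 of the 16, both lines were at least 0.5 log2 units higher on day 7, which held for 2.81% of all probe sets. The members differed among themselves. The complex IV gene cox1 read 8.4 on day 7 against 8.0 on day 2 in 35S:PAP1 plants, and 8.5 on day 7 against 7.3 on day 2 in empty vector plants. Its partner cox2 read 6.4 on day 7 against 5.5 on day 2 in 35S:PAP1 plants, and 6.5 on day 7 against 5.9 on day 2 in empty vector plants. The complex I gene nad4 read 8.0 on day 7 against 7.8 on day 2 in 35S:PAP1, but 8.6 on day 7 against 7.2 on day 2 in empty vector plants. By contrast nad2 read 3.9 on day 7 against 4.2 on day 2 in 35S:PAP1 plants and 3.8 on day 7 against 4.2 on day 2 in empty vector plants, close to the dim limit throughout. Part of the mitochondrial genome is also present in nuclear chromosome 2, and signals of the copies cannot be told apart on these arrays. AT2G07777, a locus on chromosome 2 named here after its values were seen, read 6.4 on day 7 against 3.8 on day 2 in 35S:PAP1 plants and 6.3 on day 7 against 4.6 on day 2 in empty vector plants, a difference of at least 2.15 ± 0.26 log2 units (limma adjusted p = 0.0504).

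**Figure D1:**
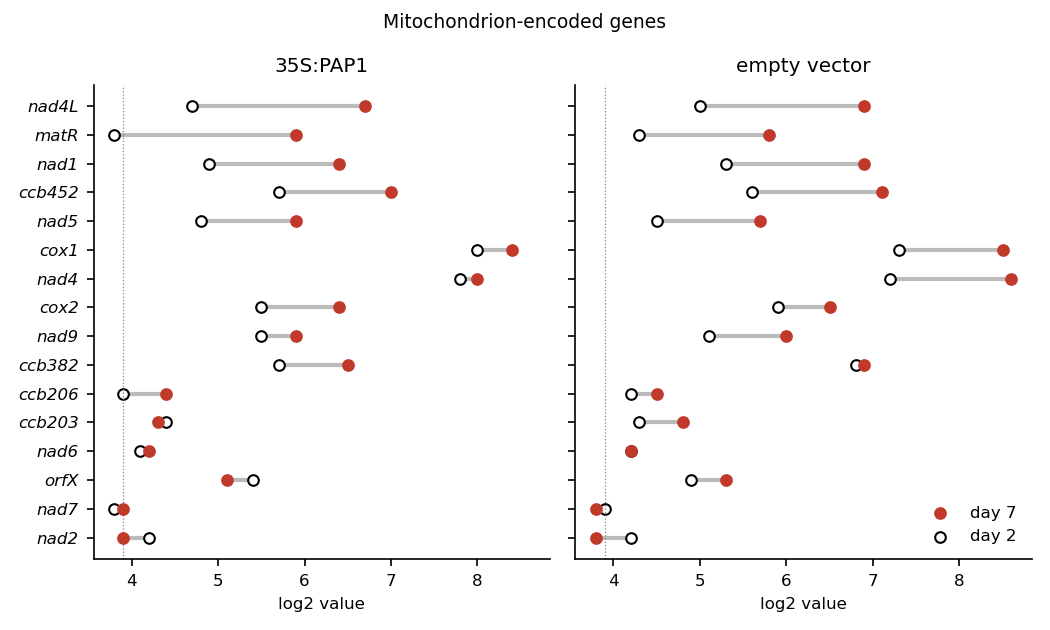
Log2 values of the 16 mitochondrion-encoded genes on day 7 (filled) and day 2 (open), 1 array each, in 35S:PAP1 (left) and empty vector plants (right), ordered by the mean change of the lines; the dotted line is the dim limit of 3.9. The genes at the top, nad4L, matR, nad1 and ccb452, lie far to the right on day 7 in both lines, and those at the bottom hardly differ.

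No plastid gene passed. Of the 69 genes of that genome with a probe set, 0 passed in either direction, 20 were at least 0.5 log2 units higher in both lines (2.81% of all probe sets were) and 0 were as much lower in both. The median change was 0.30 log2 units in 35S:PAP1 plants and 0.50 in empty vector plants, against 0 in each line over all probe sets. Of the 69, 47 were above 0 in 35S:PAP1 plants and 57 in empty vector plants. The low poly-A spike readings of both day 7 arrays apply here too, and their part was not tested. Among the members for the plastid's own RNA polymerase, rpoC1 read 10.5 on day 7 against 9.1 on day 2 in 35S:PAP1 plants and 10.9 on day 7 against 9.8 on day 2 in empty vector plants, a difference of 1.25 ± 0.19 log2 units (limma adjusted p = 0.0927). The rubisco large subunit gene rbcL read 10.9 on day 7 against 9.8 on day 2 in 35S:PAP1 plants and 10.8 on day 7 against 9.9 on day 2 in empty vector plants (1.00 ± 0.18 log2 units, limma adjusted p = 0.128). The largest gap was that of psaA, a core protein of photosystem I, at 11.3 on day 7 against 8.1 on day 2 in 35S:PAP1, and 12 on day 7 against 11.4 on day 2 in empty vector plants. The 35S:PAP1 day 2 value of psaA was the lowest of its 10, the others lying between 11 and 12, and it came from the array with the high ribosomal RNA reading. The gene for the photosystem II protein D1, psbA, read 11 on day 7 against 11.2 on day 2 in 35S:PAP1, and 12.1 on day 7 against 10.6 on day 2 in empty vector plants.

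Nuclear genes of the photosystems did not share that direction. Of 8 with a probe set of their own, 0 passed the test in either direction, and the median changes were -0.25 log2 units in 35S:PAP1 plants and -0.30 in empty vector plants, all 8 being below 0 in empty vector plants. Only LHCB4.3, a minor antenna protein of photosystem II, was at least 0.5 log2 units lower in both lines, at 6.7 on day 7 against 8.2 on day 2 in 35S:PAP1 plants and 7.7 on day 7 against 9.0 on day 2 in empty vector plants (limma adjusted p = 0.214). Its relative LHCB4.2 read 12.4 on day 7 against 13 on day 2 in 35S:PAP1 plants, and 12.9 on day 7 against 13.1 on day 2 in empty vector plants. Of 4 Calvin cycle genes, RCA, PRK, SBPASE and HPR, every change lay between -0.1 and 0.2 log2 units in either line.

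The other named gene that rose was the nuclear AT1G08230, which read 6.7 on day 7 in each line, against 4.6 on day 2 in 35S:PAP1 plants and 4.7 on day 2 in empty vector plants. The change was 2.05 ± 0.14 log2 units (4.14-fold, limma adjusted p = 0.0120). On days 1, 2, 7, 8 and 12 it read 4.1, 4.7, 6.7, 4.8 and 4.3 in empty vector plants, so day 7 was the one day on which it stood out. HIS1-3, the linker histone H1 variant that plants raise under drought and low light, read 7.8 on day 7 against 5.7 on day 2 in 35S:PAP1 plants and 7.7 on day 7 against 5.3 on day 2 in empty vector plants. The groups did not overlap, and the difference of 2.25 ± 0.30 log2 units missed the threshold (limma adjusted p = 0.0693).

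Genes of the cold response and dehydrins were measured in 9 probe sets, of which 0 passed. In both lines 3 were at least 0.5 log2 units higher (2.81% of all probe sets were), and 0 as much lower (2.97% were). The median change of the list was only 0.10 log2 units in 35S:PAP1 plants and 0.20 in empty vector plants. Below 0 were 4 members in 35S:PAP1 plants and 1 in empty vector plants. COR15A, a plastid protein that protects membranes in the cold, read 9.9 on day 7 against 6.5 on day 2 in 35S:PAP1 plants and 8.7 on day 7 against 7.6 on day 2 in empty vector plants (2.25 ± 0.49 log2 units, limma adjusted p = 0.150). Its neighbour in function COR15B read 10 on day 7 against 7.6 on day 2 in 35S:PAP1 plants and 8.2 on day 7 against 6.4 on day 2 in empty vector plants. COR47, a dehydrin, read 12.1 on day 7 against 11.3 on day 2 in 35S:PAP1 plants and 12.3 on day 7 against 11.5 on day 2 in empty vector plants. In the series of days 1, 2, 7, 8 and 12, COR15A read 8.9, 6.5, 9.9, 13.5 and 11.7 in 35S:PAP1 plants and 9.7, 7.6, 8.7, 13.3 and 11.4 in empty vector plants, so the day 7 values stayed under those of day 8. Not all members rose: LTI30 differed by -0.2 log2 units in 35S:PAP1 plants and 0.3 in empty vector plants, and LEA4-5 by -0.9 and 0.2. COR27 differed by 0.7 in 35S:PAP1 plants and 0 in empty vector plants. Another 3 of the 9 genes lay at or under the dim limit on all 4 arrays.

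Of the probe sets that fell, those naming 1 gene were AT3G16670 and XTH33. AT3G16670 read 5.8 on day 7 against 9.0 on day 2 in 35S:PAP1 plants and 6.6 on day 7 against 9.2 on day 2 in empty vector plants, a change of -2.90 ± 0.22 log2 units (7.46-fold lower, limma adjusted p = 0.0120). Its readings on days 1, 2, 7, 8 and 12 were 9.6, 9.2, 6.6, 6.8 and 8.2 in empty vector plants. XTH33, a xyloglucan endotransglucosylase/hydrolase that cuts and rejoins wall xyloglucan, read 3.8 on day 7 against 5.7 on day 2 in 35S:PAP1 plants and 4.0 on day 7 against 6.2 on day 2 in empty vector plants. It fell by at least 2.05 ± 0.23 log2 units (limma adjusted p = 0.0469), and its day 1 readings were 4.2 in 35S:PAP1 plants and 4.0 in empty vector plants.

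**Figure D2:**
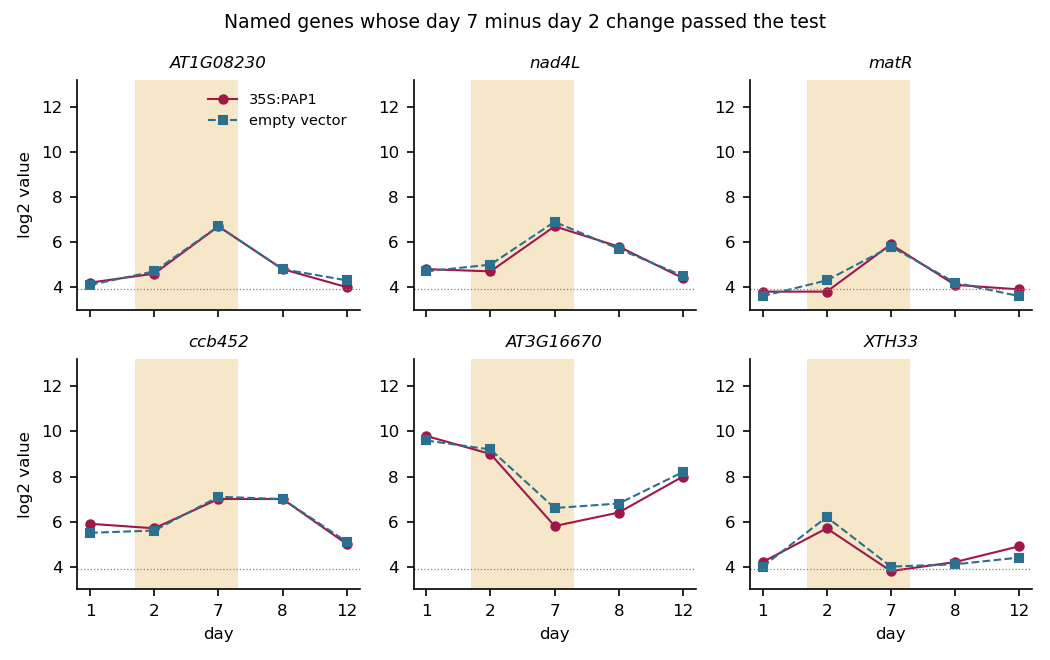
Log2 values on days 1, 2, 7, 8 and 12 (1 array a point) of the 6 named genes whose day 7 minus day 2 change passed the test, in 35S:PAP1 (circles) and empty vector plants (squares); shading marks days 2 and 7 and the dotted line the dim limit of 3.9. The lines run close together in each gene, and AT1G08230, nad4L and matR peak on day 7 while XTH33 peaks on day 2.

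A change of at least 1 log2 unit in the same direction in each line, a description with no test, was found in 52 probe sets for higher (0.229%) and 121 for lower (0.532%), and these classes held 31 and 63 named genes. The members OSM34, MYC4 and DI21 are named here after their values were seen. OSM34, an osmotin-like defence protein, read 4.2 on day 7 against 6.7 on day 2 in 35S:PAP1 plants and 6.5 on day 7 against 8.5 on day 2 in empty vector plants (limma adjusted p = 0.0962). MYC4, a transcription factor of the jasmonate pathway, read 7.7 on day 7 against 6.2 on day 2 in 35S:PAP1 plants and 6.0 on day 7 against 4.8 on day 2 in empty vector plants. DI21, a drought-induced gene, read 5.4 on day 7 against 6.7 on day 2 in 35S:PAP1 plants and 5.1 on day 7 against 6.4 on day 2 in empty vector plants.

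Genes tied to sugar shortage mostly read lower at the end of the regime, without passing the test. Of 6 on the list, 0 passed, 3 were at least 0.5 log2 units lower in both lines (2.97% of all probe sets were) and 1 as much higher. Their median change was -1.10 log2 units in 35S:PAP1 plants and -0.55 in empty vector plants. By sign, 5 were below 0 in 35S:PAP1 plants and 4 in empty vector plants, where 2 were above 0. AKINBETA1, a regulatory subunit of the SnRK1 kinase that senses low energy, read 7.1 on day 7 against 9.3 on day 2 in 35S:PAP1 plants and 8.8 on day 7 against 9.5 on day 2 in empty vector plants (-1.45 ± 0.38 log2 units, limma adjusted p = 0.188). MCCA and MCCB, the subunits of methylcrotonyl-CoA carboxylase in leucine breakdown, read 6.7 and 8.2 on day 7 against 8.6 and 9.1 on day 2 in 35S:PAP1. In empty vector plants they read 8.2 and 8.8 on day 7, against 9.0 and 9.2 on day 2. IVD, which acts one step before them, read 7.1 on day 7 against 7.8 on day 2 in 35S:PAP1 plants and 7.9 on day 7 against 8.6 on day 2 in empty vector plants. PPDK, pyruvate orthophosphate dikinase, read higher, at 9.0 on day 7 against 8.2 on day 2 in 35S:PAP1 plants and 8.8 on day 7 against 8.3 on day 2 in empty vector plants. The lines disagreed in BZIP53, which read 9.7 on day 7 against 11 on day 2 in 35S:PAP1. In empty vector plants it read 10.8 on day 7 against 10.4 on day 2. On day 1 AKINBETA1 read 7.3 in each line, and MCCA 6.7 in each.

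Most autophagy genes also read lower on day 7. Of 10 on the list, 0 passed the test, and 2 were at least 0.5 log2 units lower in both lines (2.97% of all probe sets were). The median change was -0.60 log2 units in 35S:PAP1 plants and -0.35 in empty vector plants, against 0 in each line over all probe sets. By sign, 8 were below 0 in 35S:PAP1 plants and 7 in empty vector plants, where ATG8D differed by only -0.1. ATG8E, one of the ubiquitin-like proteins that coat autophagosomes, read 5.4 on day 7 against 7.9 on day 2 in 35S:PAP1 plants and 6.8 on day 7 against 7.8 on day 2 in empty vector plants (-1.75 ± 0.33 log2 units, limma adjusted p = 0.144). ATG8H read 4.6 on day 7 against 6.2 on day 2 in 35S:PAP1 plants and 5.1 on day 7 against 5.8 on day 2 in empty vector plants, and ATG8F read 9.3 on day 7 against 10.6 on day 2 in 35S:PAP1 plants and 10.1 on day 7 against 10.4 on day 2 in empty vector plants. ATG8B, and ATG3, the enzyme that joins ATG8 to lipid, differed by between 0.0 and 0.3 log2 units in either line.

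The jasmonate list holds 7 genes, 2 of which, PDF1A and PDF1B, are peptide deformylases that share only a symbol with the plant defensins. None passed, and 3 were at least 0.5 log2 units lower in both lines (2.97% of all probe sets were), all of them defensins. PDF1.2, an antifungal defensin used as a marker of jasmonate and ethylene signalling, read 5.8 on day 7 against 6.9 on day 2 in 35S:PAP1 plants and 7.1 on day 7 against 9.6 on day 2 in empty vector plants. PDF1.4 read 5.8 on day 7 against 7.3 on day 2 in 35S:PAP1 plants and 6.2 on day 7 against 7.6 on day 2 in empty vector plants, just outside the threshold (-1.45 ± 0.18 log2 units, limma adjusted p = 0.0504). Closely related defensins such as PDF1.2 and PDF1.2b may share signal between their probe sets. Of 5 heat shock genes, 0 passed, and 1 was at least 0.5 log2 units lower in both lines. The median change was -0.80 log2 units in 35S:PAP1 plants and -0.50 in empty vector plants. The lines went opposite ways in BOB1 (0.4 in 35S:PAP1 plants, -0.6 in empty vector plants). They did so too in ATHSP22.0, which reached the dim limit, so its changes of -0.8 and 0.2 are lower bounds. Hsp70-2 differed by 0 in 35S:PAP1 plants and -0.5 in empty vector plants. HSA32, a protein needed for lasting heat tolerance, read 4.3 on day 7 against 5.5 on day 2 in 35S:PAP1. In empty vector plants it read 4.6 on day 7 against 4.9 on day 2. Fes1A, a cofactor of cytosolic HSP70, read 7.5 on day 7 against 8.3 on day 2 in 35S:PAP1 plants and 7.1 on day 7 against 7.7 on day 2 in empty vector plants.

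**Figure D3:**
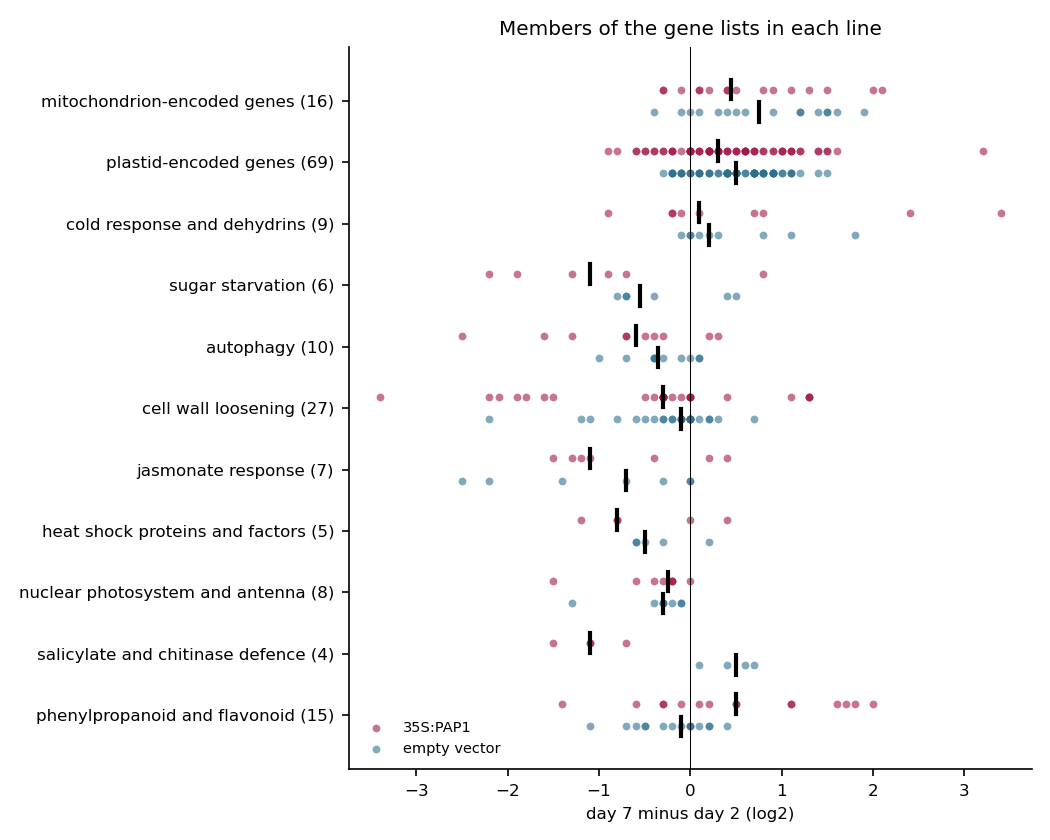
Day 7 minus day 2 change (log2) of each member of 11 gene lists, with the number of members in brackets, in 35S:PAP1 (upper row of each list) and in empty vector plants (lower row); black bars are medians. The medians of the organelle-encoded lists lie to the right of 0 in both lines, and those of the sugar starvation, autophagy and jasmonate lists to the left. Single members of these lists also lie on the other side. The phenylpropanoid and flavonoid list includes the chitinase gene CHI, and the salicylate and chitinase list lies on opposite sides in the lines.

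The second question was whether the lines changed by different amounts. No probe set passed the limma test of the difference between the lines in their changes (0 of 22746, 0%, with 2095 at an unadjusted p under 0.05), so no gene is shown to have changed in 1 line only. That test rests on the spread of the line difference over days 1, 8 and 12, with 2 residual degrees of freedom. The classes below are descriptions of single arrays.

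The change was broader in 35S:PAP1. There, 763 probe sets were at least 1 log2 unit higher on day 7 (3.35%) and 834 lower (3.67%), against 162 higher (0.712%) and 229 lower (1.01%) in empty vector plants. The SD of the change over all probe sets was 0.532 log2 units in 35S:PAP1 plants and 0.337 in empty vector plants. The arrays of days 7 and 2 correlated over probe sets at 0.973 in 35S:PAP1 plants and 0.989 in empty vector plants, as a description of 2 arrays each. Changes of at least 1 log2 unit in one line with at most 0.3 either way in the other numbered 737 in 35S:PAP1, of which 397 were higher (1.75%) and 340 lower (1.49%). In empty vector plants they numbered 72, of which 38 were higher (0.167%) and 34 lower (0.149%). The 35S:PAP1 figures include the array with the high ribosomal RNA and low 5′ actin readings.

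**Figure D4:**
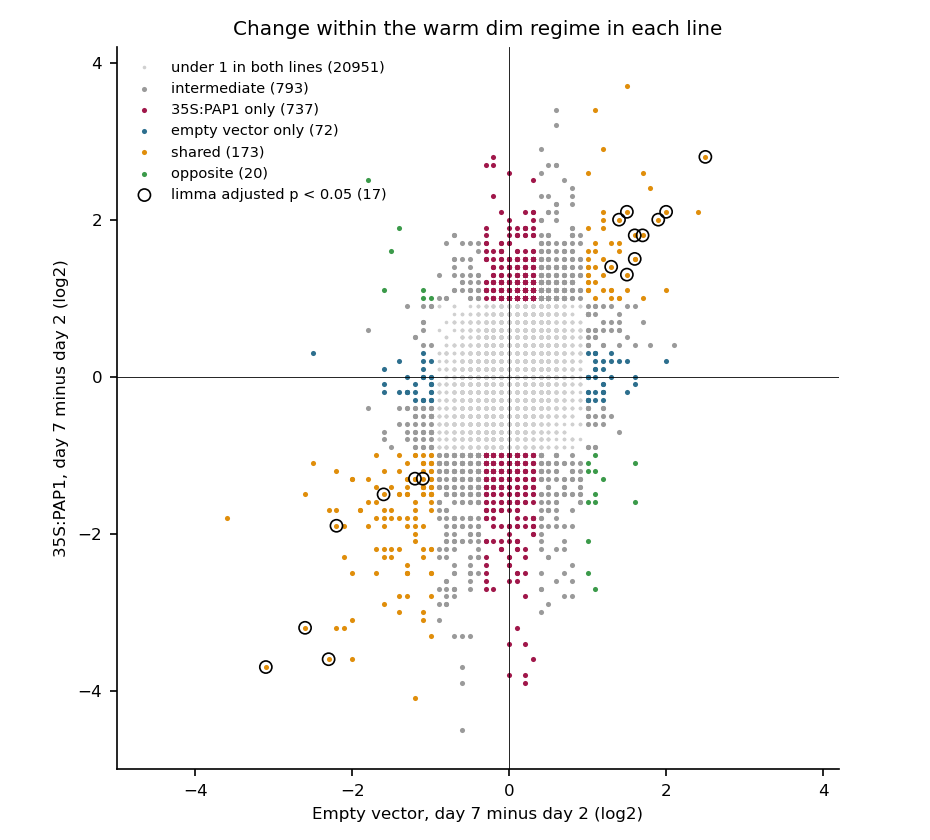
Day 7 minus day 2 change (log2) of each of 22746 probe sets in 35S:PAP1 (vertical) and in empty vector plants (horizontal), coloured by class with its count; circles mark the 17 that passed limma's test of the mean change. The cloud is taller than it is wide, with 737 probe sets in the 35S:PAP1 only class and 72 in the class of empty vector plants only. All circled points lie in the shared class, but the spread in that test is the disagreement of the lines, so it favours probe sets that changed alike in both.

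In the 340 probe sets lower in 35S:PAP1 alone, the lines lay within 0.5 log2 units of each other in 52 on day 7 (15.3%) and in 233 on day 2 (68.5%), shares that were 83.2% on day 7 and 89.9% on day 2 over all probe sets. The fall of 35S:PAP1 relative to empty vector plants between the days was fixed by how the class was chosen. These probe sets had a median 35S:PAP1 minus empty vector difference of -1.40 on day 7 against 0.10 on day 2. Some genes of cell wall loosening were in this class. XTH18, another xyloglucan endotransglucosylase/hydrolase, read 6.4 on day 7 against 9.8 on day 2 in 35S:PAP1, and 9.9 on both days in empty vector plants. EXLA1, an expansin-like wall protein, read 9.3 on day 7 against 11.5 on day 2 in 35S:PAP1 plants and 11.2 on day 7 against 11.3 on day 2 in empty vector plants, and EXLA3 read 4.1 on day 7 against 5.7 on day 2 in 35S:PAP1 plants and 5.4 on both days in empty vector plants. On day 1 XTH18 had read 5.4 in 35S:PAP1 plants and 4.8 in empty vector plants, so both lines stood far above that on day 2. The line difference of the XTH18 change was -3.40 ± 1.51 log2 units (SE, limma adjusted p = 0.565).

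Over all 27 genes of wall loosening, 1 passed the test of the shared change as lower (XTH33) and 0 as higher. In both lines 4 were at least 0.5 log2 units lower (2.97% of all probe sets were). On all 4 arrays, 8 lay at or under the dim limit. The median change was -0.30 log2 units in 35S:PAP1 plants and -0.10 in empty vector plants. XTH16 read 5.5 on day 7 in each line, against 7.3 on day 2 in 35S:PAP1 plants and 6.7 on day 2 in empty vector plants. EXPA4, EXPA15, EXPB3 and XTH32 were higher in 35S:PAP1 alone, by 1.1 to 1.3 log2 units, EXPB3 reading 6.4 on day 7 against 5.1 on day 2 there and 6.1 on day 7 against 5.8 on day 2 in empty vector plants. EXPA9, an α-expansin, was lower in empty vector plants alone, at 4.2 on day 7 against 5.3 on day 2, and read 4.7 on both days in 35S:PAP1.

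Other genes lower in 35S:PAP1 alone are known here by locus. AT3G55840 read 4.8 on day 7 against 8.6 on day 2 in 35S:PAP1 plants and 8.2 on day 7 against 8.0 on day 2 in empty vector plants, and its line difference of -4.00 ± 1.25 log2 units had a limma adjusted p of 0.490. AT1G33760 read 6.1 on day 7 against 9.7 on day 2 in 35S:PAP1 plants and 9.7 on day 7 against 9.4 on day 2 in empty vector plants, and AT3G15450 read 9.5 on day 7 against 12.1 on day 2 in 35S:PAP1 plants and 11.7 on day 7 against 12 on day 2 in empty vector plants. AT4G37240, AT1G56060, AT1G66090 and AT3G05320 were lower in 35S:PAP1 by 2.6 to 3.2 log2 units and differed by -0.3 to 0.1 in empty vector plants. HEMA2, a glutamyl-tRNA reductase of tetrapyrrole synthesis, read 6.8 on day 7 against 8.0 on day 2 in 35S:PAP1 plants and 8.9 on day 7 against 8.6 on day 2 in empty vector plants. The auxin-conjugating enzyme WES1 read 6.6 on day 7 against 8.2 on day 2 in 35S:PAP1 plants and 8.1 on day 7 against 8.3 on day 2 in empty vector plants.

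The 4 genes of the salicylate and chitinase list lay on opposite sides. Their median change was -1.10 log2 units in 35S:PAP1 plants and 0.50 in empty vector plants, against 0 in each line over all probe sets. Below 0 were 4 of 4 in 35S:PAP1 plants, and above 0 were 4 of 4 in empty vector plants. Of the list, 0 passed the test of the line difference. Its measured members are SAG101, a partner of the immune regulator EDS1, and PUB22, PUB23 and PUB24, U-box ubiquitin ligases that restrain pattern-triggered immunity; none is a chitinase. PUB22 read 7.1 on day 7 against 8.6 on day 2 in 35S:PAP1 plants and 8.9 on day 7 against 8.3 on day 2 in empty vector plants. PUB23 read 9.2 on day 7 against 10.3 on day 2 in 35S:PAP1 plants and 11.1 on day 7 against 10.4 on day 2 in empty vector plants, and PUB24 read 6.1 on day 7 against 6.8 on day 2 in 35S:PAP1 plants and 8.0 on day 7 against 7.6 on day 2 in empty vector plants. SAG101 read 5.4 on day 7 against 6.5 on day 2 in 35S:PAP1 plants and 6.2 on day 7 against 6.1 on day 2 in empty vector plants.

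Anthocyanin genes were among the named transcripts higher in 35S:PAP1 alone. AT5MAT, which adds malonate to anthocyanins, read 9.6 on day 7 against 7.6 on day 2 in 35S:PAP1, and 3.5 on both days in empty vector plants, under the dim limit. CHIL, a chalcone isomerase-like protein that aids flavonoid synthesis, read 8.8 on day 7 against 7.0 on day 2 in 35S:PAP1 plants and 4.8 on day 7 against 4.6 on day 2 in empty vector plants. UGT78D2, which puts glucose on the 3 position of flavonoids, read 10.8 on day 7 against 9.2 on day 2 in 35S:PAP1 plants and 6.1 on day 7 against 6.2 on day 2 in empty vector plants. UF3GT, which adds xylose to anthocyanins, read 11.8 on day 7 against 10.7 on day 2 in 35S:PAP1 plants and 4.7 on day 7 against 5.0 on day 2 in empty vector plants. DFR, dihydroflavonol reductase, was outside the class because its empty vector values differed by more than 0.3. It read 12.4 on day 7 against 10.7 on day 2 in 35S:PAP1 plants and 3.8 on day 7 against 4.4 on day 2 in empty vector plants. On day 1 these genes had read 9.5 (AT5MAT), 9.9 (CHIL), 10.7 (UGT78D2), 12.4 (DFR) and 11.8 (UF3GT) in 35S:PAP1, so the day 2 value was the lowest of days 1, 2 and 7 for each. That day 2 value comes from the array with the high ribosomal RNA reading, and the line difference of the change had limma adjusted p-values of 0.696 for AT5MAT and UGT78D2, 0.748 for CHIL, 0.734 for DFR and 0.797 for UF3GT.

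Of 15 genes on the phenylpropanoid and flavonoid list, 0 passed the test in either direction, and the median change was 0.50 log2 units in 35S:PAP1 plants and -0.10 in empty vector plants. One member, CHI, is a chitinase gene in RefSeq (AT2G43570) and shares only its symbol with chalcone isomerase. Without it, which was tried after the data were seen, the 14 others had medians of 0.50 in 35S:PAP1 plants, where 10 were above 0, and -0.05 in empty vector plants, where 4 were. The chitinase CHI read 7.0 on day 7 against 8.4 on day 2 in 35S:PAP1 plants and 7.7 on day 7 against 8.8 on day 2 in empty vector plants (-1.25 ± 0.27 log2 units, limma adjusted p = 0.150). UGT78D1, which puts rhamnose on flavonols, read 7.7 on day 7 against 6.6 on day 2 in 35S:PAP1 plants and 6.5 on day 7 against 6.3 on day 2 in empty vector plants. CCOAMT, a methyltransferase of lignin precursors, read 5.6 on day 7 against 6.2 on day 2 in 35S:PAP1 plants and 6.6 on day 7 against 7.3 on day 2 in empty vector plants.

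**Figure D5:**
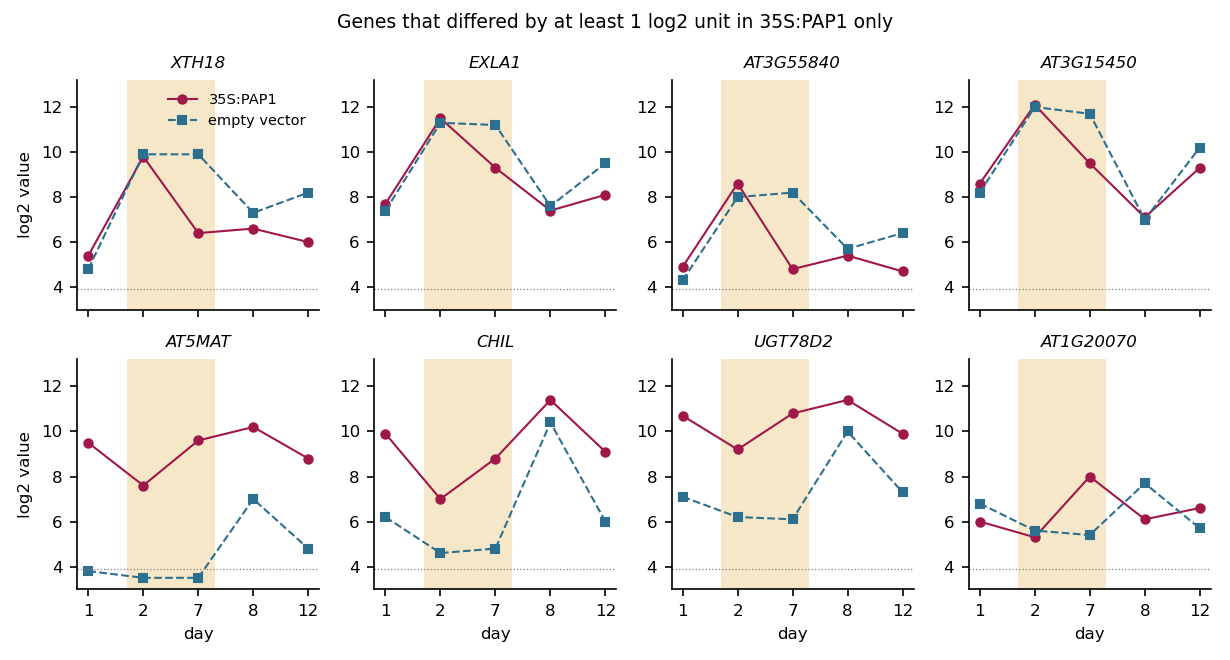
Log2 values on days 1, 2, 7, 8 and 12 (1 array a point) of 8 genes that differed by at least 1 log2 unit in 35S:PAP1 (circles) and by at most 0.3 in empty vector plants (squares) between days 7 and 2; shading marks those days and the dotted line the dim limit of 3.9. In the upper row the lines meet on day 2 and part on day 7, and in the first 3 panels of the lower row 35S:PAP1 lies above the empty vector on every day.

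The class higher in 35S:PAP1 alone held 397 probe sets. In these, the lines lay within 0.5 log2 units in 149 on day 7 (37.5%) and 243 on day 2 (61.2%). Over all probe sets the shares were 83.2% on day 7 and 89.9% on day 2. The median 35S:PAP1 minus empty vector difference in the class was 0.70 on day 7 and -0.30 on day 2. A rise of that difference between the days was fixed by how the class was chosen. AT1G20070 read 8.0 on day 7 against 5.3 on day 2 in 35S:PAP1 plants and 5.4 on day 7 against 5.6 on day 2 in empty vector plants. AT3G45210, AT1G11700 and AT5G20700 were higher in 35S:PAP1 by 1.9 to 2.1 log2 units and differed by -0.1 to 0.3 in empty vector plants. AT4G14090 read 11.5 on day 7 against 9.7 on day 2 in 35S:PAP1 plants and 4.7 on day 7 against 5.0 on day 2 in empty vector plants. TINY2, a DREB-type transcription factor, read 6.2 on day 7 against 4.4 on day 2 in 35S:PAP1 plants and 4.2 on day 7 against 4.1 on day 2 in empty vector plants. HAT2, a homeodomain factor that shade and auxin raise, read 9.0 on day 7 against 7.6 on day 2 in 35S:PAP1 plants and 6.7 on day 7 against 6.5 on day 2 in empty vector plants, and ARR15, a cytokinin response regulator, read 6.2 on day 7 against 4.7 on day 2 in 35S:PAP1 plants and 4.3 on day 7 against 4.4 on day 2 in empty vector plants.

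Far fewer genes differed in empty vector plants alone. PUB19, a U-box ubiquitin ligase of drought signalling, read 7.5 on day 7 against 7.6 on day 2 in 35S:PAP1, and 9.1 on day 7 against 7.5 on day 2 in empty vector plants. AT3G53980 read 5.6 on day 7 against 5.4 on day 2 in 35S:PAP1 plants and 7.0 on day 7 against 5.5 on day 2 in empty vector plants, and AT1G62290 and AT5G65240 were higher in empty vector plants by 1.3 log2 units each. SAG29, a sugar transporter of the SWEET family that marks senescence, read 4.6 on day 7 against 4.7 on day 2 in 35S:PAP1, and 4.5 on day 7 against 6.1 on day 2 in empty vector plants. The subtilase SBT3.5 read 5.6 on day 7 against 5.8 on day 2 in 35S:PAP1 plants and 5.1 on day 7 against 6.7 on day 2 in empty vector plants. RALFL31, a RALF-like signalling peptide, and TUB1, a β-tubulin, were lower in empty vector plants by 1.3 log2 units each and differed by -0.2 in 35S:PAP1.

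Opposite changes of at least 1 log2 unit in each line were seen in 20 probe sets, 7 with 35S:PAP1 higher on day 7 (0.0308%) and 13 with it lower (0.0572%). TBL26, of a family that acetylates wall polysaccharides, read 9.3 on day 7 against 7.4 on day 2 in 35S:PAP1 plants and 6.2 on day 7 against 7.6 on day 2 in empty vector plants. AT1G35210 read 5.9 on day 7 against 8.4 on day 2 in 35S:PAP1 plants and 7.6 on day 7 against 6.6 on day 2 in empty vector plants. DLAH, a lipase related to the jasmonate enzyme DAD1, read 3.4 on day 7 against 5.0 on day 2 in 35S:PAP1 plants and 5.3 on day 7 against 4.2 on day 2 in empty vector plants, with its 35S:PAP1 day 7 value under the dim limit. The lines had been 0.2 apart on day 2 for TBL26, and were 3.1 apart on day 7.

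The list of gibberellin, brassinosteroid, cytokinin and ethylene genes has 5 measured members, of which 0 passed either test. Their median change was 0.70 log2 units in 35S:PAP1 plants, where 5 of 5 were above 0, and -0.10 in empty vector plants, where 2 of 5 were. Over all probe sets the median was 0 in each line. GID1B, a gibberellin receptor, read 6.3 on day 7 against 5.3 on day 2 in 35S:PAP1 plants and 6.3 on day 7 against 6.7 on day 2 in empty vector plants. Its fellow receptor GID1A read 8.6 on day 7 against 7.9 on day 2 in 35S:PAP1 plants and 8.1 on day 7 against 7.9 on day 2 in empty vector plants. The list also holds GID1C, the ethylene transcription factor EIN3, and ARR15.

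Of 28 antioxidant and glutathione transferase genes, 21 nutrient transport genes, 24 glucosinolate and myrosinase genes, 17 auxin and shade genes, 12 cell cycle and histone genes and 5 flowering genes, 0 passed either test. The median changes of these lists lay between -0.20 and 0.15 log2 units in both lines. Members were matched by gene symbol, so some may share only a symbol with the pathway that names their list. Most members of the glucosinolate and myrosinase list are known here only as β-glucosidases. Of its 24, 12 lay at or under the dim limit on all 4 arrays. The 10 genes of chlorophyll synthesis had medians of -0.30 in 35S:PAP1 plants and -0.25 in empty vector plants, with 0 passing. Of 6 senescence genes, 0 passed, and WRKY53, an early senescence regulator, read 9.3 on day 7 against 10 on day 2 in 35S:PAP1 plants and 10.9 on day 7 against 10.2 on day 2 in empty vector plants. GI, a clock gene, read 10.2 on day 7 against 9.5 on day 2 in 35S:PAP1 plants and 9.8 on day 7 against 9.5 on day 2 in empty vector plants.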

How the data were processed

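Biotin-labelled RNA of pooled leaves was hybridised to Affymetrix arrays, as the labels' protocols state. The authors' deposited values are log2 signals from RMA, a tool named by the submitters' processing notes without a version. Precision is limited by the number of arrays. The labels name no separate plants as replicates. With 1 array per line and day, the spread behind the p-values of the shared change is how far the lines disagreed over the days of the series. A line's own response and technical differences are both in that spread, and cannot be told apart.

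Of 22810 probe sets, 64 controls were left out and 22746 tested. The probe table names 1 gene for 13513, several for 503 and none for 8730; 13484 of the first matched RefSeq (TAIR10.1), used for names only. The unused per-sample columns numbered 0. limma 3.58.1 in R 4.3.3 (lmFit, eBayes, Benjamini-Hochberg, threshold 0.05) fitted day with line as a block to all 10 arrays (4 residual degrees of freedom), which already pairs the lines, and the day 7 minus day 2 contrast of the 5 line differences. The fits were also run on simulated data with independent noise and added changes. Those data held none of the array differences in spikes and RNA quality described above, so that run does not cover them.

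The members, lists and tests were chosen with earlier results of these data known. Named genes are up to 15 per direction that passed in both lines, up to 8 per class of single-line or opposite change, and any list member; others are marked as chosen after seeing their values. The organelle lists follow the chromosome or symbol in RefSeq, since the locus prefixes planned do not occur there. Reading frames with a ccb or orfX symbol, such as ccb452, were also taken as mitochondrial by the form of that symbol. Where a gene had several probe sets, its brightest on average was used. Alternatives were other scalings, a dim filter, other fits and left-out arrays. No promoter sequence was at hand, so the planned motif search was not run.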

Additional observations from a re-analysis of the deposited data

Results flagged for a closer look

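The 8 named genes with opposite changes of at least 1 log2 unit in the lines stand apart because the 35S:PAP1 array pair moved one way and the empty vector pair the other. The 35S:PAP1 minus empty vector difference of the day 7 minus day 2 change was -3.5 log2 units for AT1G35210, -2.7 for AT1G56660, -2.5 for AT3G48650 and -2.1 for AT3G09020. It was -3.1 for AT2G22760 and -2.7 for DLAH, whose 35S:PAP1 values on day 7 were under the dim limit, so that each difference is at least that large. It was 3.3 for TBL26 and 2 for AT5G42860. The limma test of that difference passed for 0 probe sets, and each value rests on 1 array per line and day.

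The 25S ribosomal RNA control probe set, which lies outside the tested probe sets, read 9.7 on the 35S:PAP1 array of day 2, against 4.7 to 6.7 on the other 9 arrays. Its part in the 35S:PAP1 changes was not tested.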

How the results depend on the processing

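The 10 higher and 7 lower calls of the shared change became 12 and 12 with each array centred on its median, 11 and 10 after quantile normalization, 11 and 11 with only probe sets above the dim limit, 12 and 11 with an intensity trend, and 12 and 7 with no line block. They became 0 and 0 on the 4 arrays of days 7 and 2 alone (2570 at an unadjusted p under 0.05), without the 35S:PAP1 arrays of those days (1926) and without the empty vector arrays of those days (4283). Leaving out 1 array gave 0 to 67 higher and 0 to 71 lower, the highest being without the day 7 array of empty vector plants and all others 0, with 1690 to 4176 at an unadjusted p under 0.05. These fits have fewer residual degrees of freedom than the reported fit. The 6 named calls kept their direction in all 108 repeats and passed in 33 of them. Many of these repeats could not change the estimate, so direction was not tested there. They were the dim limit filter, the intensity trend, no line block, and days 7 and 2 alone. Leaving out an array of any other day could not change the estimate either. Both lines had moved the same way in each of these genes, which fixed the direction without either line's arrays of days 7 and 2. The line difference had 0 calls in each direction under every alternative run.

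With a change of at least 0.8 log2 units the shared classes held 117 higher and 217 lower, the 35S:PAP1 only classes 763 and 563, the empty vector only classes 110 and 88, and the opposite classes 18 (35S:PAP1 higher) and 48. With at least 1.5 they held 12 and 34, 81 and 110, 5 and 4, and 2 and 1, in that order. With up to 0.5 allowed in the other line, the empty vector only classes held 62 and 61. Other scalings and the dim filter left each class within 1.5 times its count.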
